A study of Mus musculus with 8 samples.

Results

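Genes that write, maintain and erase DNA methylation were followed through the temperature shift of SN4741 cells. With them were the catalytic subunits of polycomb repressive complex 2 and its scaffold Suz12. The set held 10 genes of the 31053 in the matrices, chosen by symbol alone: *Dnmt1*, *Dnmt3a*, *Dnmt3b*, *Uhrf1*, *Tet1*, *Tet2*, *Tet3*, *Ezh1*, *Ezh2* and *Suz12*. SN4741 is a clonal mouse line made from embryonic substantia nigra, in which the tyrosine hydroxylase promoter drives a temperature-sensitive SV40 T antigen, and its karyotype is unstable and mostly triploid. Single-cell RNA-seq was performed on 4 libraries of cells kept at 37 °C (permissive) in 10% serum, and on 4 libraries of cells that were moved to 39 °C (non-permissive) in 0.5% serum 24 hours after passage and harvested after 48 hours. Temperature and serum changed together, so they cannot be told apart in any comparison. Nothing in the labels says that the libraries of a temperature came from separate cultures, so the p-values measure the spread between these libraries, which may be technical.

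DNA methylation is copied to the new strand after replication by Dnmt1, which Uhrf1 brings to hemimethylated sites. Dnmt3a and Dnmt3b set methylation on unmethylated DNA, and the Tet enzymes oxidize methylcytosine as the first step of its removal. Polycomb repressive complex 2 (PRC2) methylates histone H3 at repressed genes through Ezh1 or Ezh2, and Suz12 is a scaffold that both forms of the complex need. In neural lineages Ezh2 is known from dividing precursors and Ezh1 from cells that have left the cycle, and Dnmt1, Uhrf1 and Ezh2 are known targets of the E2F factors that switch on genes for replication.

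The promoters of the 10 genes were read first, to show what the members share that the choice by symbol did not use. RefSeq windows of 300 bases (GRCm38.p6, 250 bases before and 50 after an annotated start) were found for 10 of 10 genes, 15 windows in all. They were searched on both strands for TTTNNCGC, a loose form of the core of E2F-type sites, where N is any base. Not every match need thus be an E2F-type site. The word was found for 4 genes, *Uhrf1*, *Dnmt1*, *Ezh2* and *Suz12*, and was not in the windows of the other 6. It was found in 5.17% of all 32851 windows and for 5.93% of the 27025 genes that have one. These shares are not matched to the members in base content or in windows per gene, so they do not test enrichment. The word itself holds a CpG, and the 15 windows were 51.3% to 82.3% G and C. In the following stretches, written 5′ to 3′ on the strand of the gene, capitals mark the matches. *Ezh1*, the partner of *Ezh2* without a match, is shown for contrast.
Uhrf1 (chr17:56304063-56304312, + strand): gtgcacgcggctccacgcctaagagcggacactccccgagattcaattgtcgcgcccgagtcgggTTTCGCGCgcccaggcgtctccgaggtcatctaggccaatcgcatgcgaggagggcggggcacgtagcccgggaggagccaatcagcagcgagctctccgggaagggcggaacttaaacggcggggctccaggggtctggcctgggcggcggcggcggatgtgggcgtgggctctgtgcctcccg
Suz12 (chr11:79992856-79993105, + strand): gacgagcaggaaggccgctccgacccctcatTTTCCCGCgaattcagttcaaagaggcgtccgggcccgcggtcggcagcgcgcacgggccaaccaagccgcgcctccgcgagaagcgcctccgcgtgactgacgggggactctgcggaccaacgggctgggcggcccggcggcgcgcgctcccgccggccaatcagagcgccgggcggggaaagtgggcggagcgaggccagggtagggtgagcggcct
Ezh1 (chr11:101226464-101226713, - strand): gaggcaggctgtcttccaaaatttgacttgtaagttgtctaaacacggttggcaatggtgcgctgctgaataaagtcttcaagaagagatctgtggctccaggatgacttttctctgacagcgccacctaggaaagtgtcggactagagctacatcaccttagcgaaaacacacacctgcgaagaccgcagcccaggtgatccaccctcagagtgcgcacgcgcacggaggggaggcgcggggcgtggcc
Dnmt1 (chr9:20952824-20952853, - strand): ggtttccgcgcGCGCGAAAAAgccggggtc
Ezh2 (chr6:47595010-47595039, - strand): tgggttgctgcgTTTGGCGCtcggtccggt

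The *Uhrf1* match begins 185 bases before the start shown, and its other window (chr17:56303087-56303386) has a match that begins 56 bases before that start. The *Suz12* match begins 219 bases before its start. *Dnmt1* has matches in 1 of 3 windows (chr9:20952574-20952873), where 2 that overlap begin 219 and 217 bases before the start on the opposite strand, and another lies at position 34 counted from the start. The *Ezh2* match lies at position 4 counted from the start. Only 30 bases are shown for *Dnmt1* and *Ezh2*, because exons of other annotated transcripts lie in their windows. CCAAT, a common promoter word, was found for 5 of the 10 genes (the same 4 and *Tet3*), against 41.1% of all genes. These are matches of letters, found with the expression results known, and no binding was measured.

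The matrices held 22988911 to 33652656 unique molecular identifiers (UMIs, counts of captured transcripts) per library. After the study's cell filter 18351 cells were left, of which 8550 came from 37 °C and 9801 from 39 °C. The kept cells of a library held 17166686 to 29633818 UMIs. The fewest cells were in 39 °C replicate 1, which kept 985 of 1167. A Mki67 UMI, from the gene of the proliferation antigen Ki-67, was found in 56.0% ± 3.55 (SD, n = 4) of cells at 37 °C and in 6.26% ± 0.842 (SD, n = 4) at 39 °C. With each cell thinned to 5000 UMIs these shares were 43.4% ± 2.12 and 4.44% ± 0.354 (SD, n = 4), and 668 cells at 37 °C and 1668 at 39 °C were too shallow to be thinned. The markers of a neural precursor were partly absent: 5 of 10 (*Sox1*, *Pax6*, *Fabp7*, *Hes5*, *Prom1*) had under 10 UMIs over all libraries. Of the other 5, 3 were higher and 1 lower at 39 °C by the test used below, where 31.5% of all genes were higher and 30.5% lower. The summed level of the 10 was 5647 to 6020 CPM (UMIs scaled to equal library totals) at 37 °C and 5211 to 5821 at 39 °C, mostly *Vim*. With libraries pooled, *Nes* stood at 462 CPM at 37 °C and 110 at 39 °C, and *Sox2* at 54.8 and 77.1. The summed level of 8 mesenchymal markers, nearly all *Col1a1* and *Col1a2*, was 1668 to 1745 CPM at 37 °C and 752 to 785 at 39 °C. That of 7 neuron markers, nearly all *Stmn2*, *Map2* and *Tubb3*, was 165 to 194 and 79.3 to 97.7. That of 4 immune markers, nearly all *Cd68*, was 15.3 to 18.3 and 26.6 to 34.9. The part of these markers in the results below was not tested. Glial markers summed to at most 5.48 and endothelial markers to at most 1.17 CPM in any library.

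In all cells together, 4 members fell at 39 °C, 4 rose and 2 did not pass the test. The members that fell were *Uhrf1*, *Ezh2*, *Dnmt1* and *Suz12*, and those that rose were *Dnmt3a*, *Tet1*, *Ezh1* and *Tet2*. Of the 15810 genes tested by quasi-likelihood in edgeR, at a Benjamini-Hochberg adjusted p under 0.05, 30.5% fell and 31.5% rose, so passing in itself was common. The median log2 fold change was 0.13 over the 10 members and 0.02 over all genes. The 37 °C and 39 °C libraries had no overlap for 8 of 10 members, against 56.7% of all genes. UMIs were summed over all cells of a library, and a sum cannot tell fewer cells with a transcript from fewer transcripts per cell.

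**Figure D1:**
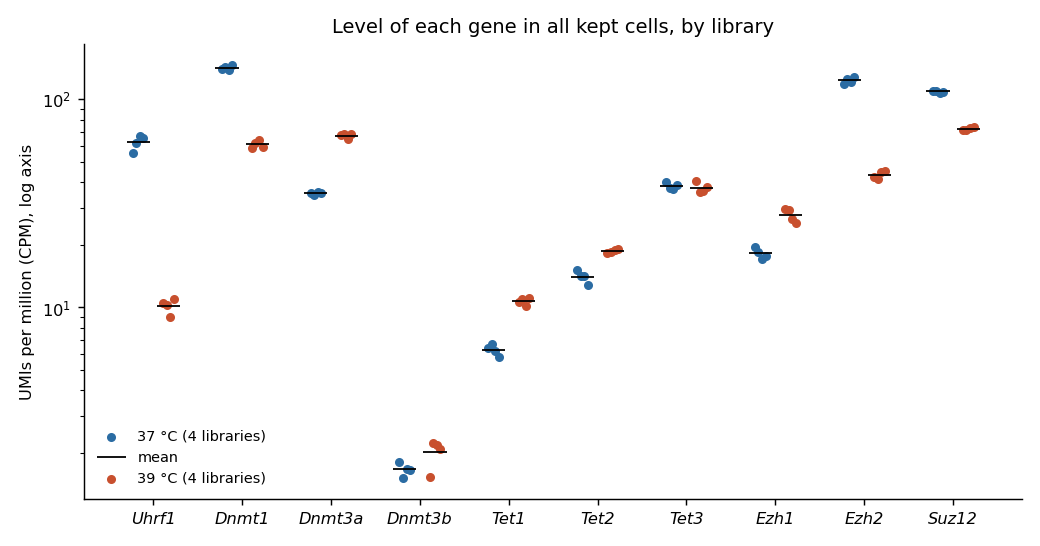
Level of each of the 10 genes in CPM (UMIs scaled to the library total, log axis) in all kept cells, with 1 point per library (37 °C blue, 39 °C orange, 4 libraries each) and a black line at the mean. The points of the temperatures lie apart for 8 genes and overlap for *Dnmt3b* and *Tet3*.

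*Uhrf1*, the reader that guides maintenance methylation (chromosome 17, 56303321 to 56323486, + strand, GRCm38), had the largest difference of the 10. Its level was 55.1, 61.5, 66.5 and 65.2 CPM (with TMM-scaled totals) in 37 °C replicates 1 to 4 and 10.5, 10.3, 8.99 and 11.0 CPM in 39 °C replicates 1 to 4. The lowest 37 °C library lay far above the highest 39 °C library. The log2 fold change was -2.61 ± 0.071 (SE), a 6.10-fold fall (edgeR adjusted p = 2.61e-16).

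*Dnmt1*, the maintenance methyltransferase (chromosome 9, 20907209 to 20959888, - strand), stood at 139, 143, 139 and 147 CPM at 37 °C and at 58.7, 61.6, 63.5 and 59.3 CPM at 39 °C. The groups were far apart, with little spread within each (SD 3.74 and 2.22 CPM, n = 4 each). The log2 fold change was -1.22 ± 0.046 (SE), with an edgeR adjusted p of 2.64e-14.

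*Dnmt3a*, a de novo methyltransferase (chromosome 12, 3806007 to 3914443, + strand), moved the other way. It stood at 35.5, 34.5, 35.8 and 35.5 CPM at 37 °C and at 67.6, 67.8, 64.4 and 68.1 CPM at 39 °C, higher by 0.92 ± 0.044 (SE) on the log2 scale with an edgeR adjusted p of 8.60e-13. Its relative *Dnmt3b* (chromosome 2, 153649450 to 153687730, + strand) was near the limit of these data, with 27 to 62 UMIs in a library. It stood at 1.82, 1.51, 1.68 and 1.65 CPM at 37 °C and at 1.53, 2.23, 2.19 and 2.08 CPM at 39 °C. The groups overlapped through 39 °C replicate 1, and the difference did not pass (log2 0.29 ± 0.15 (SE), edgeR adjusted p = 0.094). Without that library it passed (log2 0.37, edgeR adjusted p = 0.034), which took the members that rose from 4 to 5.

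The 3 Tet genes, whose enzymes oxidize methylcytosine, did not share a direction. *Tet1* (chromosome 10, 62804570 to 62908996, - strand) rose from 6.25 ± 0.397 to 10.7 ± 0.412 CPM (SD, n = 4 each), log2 0.78 ± 0.074 (SE, edgeR adjusted p = 2.03e-08). *Tet2* (chromosome 3, 133463679 to 133545139, - strand) rose from 14.1 ± 0.929 to 18.7 ± 0.387 CPM, log2 0.41 ± 0.059 (SE, edgeR adjusted p = 5.80e-06). For both, the lowest 39 °C library lay above the highest 37 °C library. *Tet3* (chromosome 6, 83362373 to 83459084, - strand) stood at 39.9, 37.7, 36.9 and 38.6 CPM at 37 °C and at 40.4, 35.8, 36.2 and 38.1 CPM at 39 °C. Its groups overlapped, with a log2 difference of -0.03 and an interval (95%, as are all below) of -0.13 to 0.07 (edgeR adjusted p = 0.644).

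Of the 3 PRC2 members, *Ezh2*, the catalytic subunit of dividing cells (chromosome 6, 47530139 to 47595341, - strand), fell most. It stood at 118, 126, 121 and 128 CPM at 37 °C and at 42.6, 41.4, 44.5 and 45.4 CPM at 39 °C. On the log2 scale the difference was -1.50 ± 0.048 (SE, edgeR adjusted p = 2.51e-15), so that 35.3% of the 37 °C level was left. *Suz12*, the scaffold (chromosome 11, 79993106 to 80034123, + strand), stood at 109, 110, 108 and 109 CPM at 37 °C and at 71.5, 71.1, 72.5 and 73.3 CPM at 39 °C. It fell by less than *Ezh2* but with as little spread (log2 -0.60 ± 0.041 (SE), edgeR adjusted p = 2.33e-10). *Ezh1*, the other catalytic subunit (chromosome 11, 101191115 to 101226463, - strand), stood at 19.6, 18.4, 17.2 and 17.8 CPM at 37 °C and at 29.6, 29.4, 26.8 and 25.5 CPM at 39 °C. It rose, with the lowest 39 °C library above the highest at 37 °C (log2 0.61 ± 0.061 (SE), edgeR adjusted p = 4.35e-08). At the study's stricter rule (adjusted p under 0.01 and over 1.5 in size on the log2 scale), which 5.83% of genes passed, *Uhrf1* and *Ezh2* were called, the latter just past the size limit.

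The balance between paralogs was taken as the share of their UMIs in each library, a measure that needs no scaling between libraries. It says how a share moved and not which protein was more abundant. *Ezh2* made up 85.8%, 87.2%, 87.6% and 87.8% of the *Ezh1* and *Ezh2* UMIs at 37 °C and 59.0%, 58.4%, 62.5% and 64.0% at 39 °C. The means were 87.1% and 61.0%, a difference of -26.1 percentage points. *Dnmt1* made up 79.3% ± 0.615 of the UMIs of the 3 Dnmt genes at 37 °C and 46.8% ± 1.40 at 39 °C (SD, n = 4 each), a difference of -32.5 points. *Dnmt3a* made up 95.5% ± 0.276 of the *Dnmt3a* and *Dnmt3b* UMIs at 37 °C and 97.1% ± 0.487 at 39 °C (SD, n = 4 each), a difference of 1.58 points. In each share the groups did not overlap. The exact permutation test over all 70 ways to assign the libraries, two-sided, gave p = 0.0286 for each, the smallest p it can give, and 0.0286 after adjustment over 3 shares. With thinned cells the *Dnmt3a* share did not pass (1.79 points, exact permutation adjusted p = 0.0571). In cells without a Mki67 UMI the *Ezh2* share moved from 81.0% to 58.1%, and in cells with one from 89.6% to 82.2% (exact permutation adjusted p = 0.0286 and 0.0429). The cells without a Mki67 UMI also differed in cell-cycle phase between the temperatures: 55.3% were called S at 37 °C and 13.9% at 39 °C. The *Dnmt3a* share in cells with a Mki67 UMI did not pass, with a difference of 1.42 points (exact permutation adjusted p = 0.343).

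**Figure D2:**
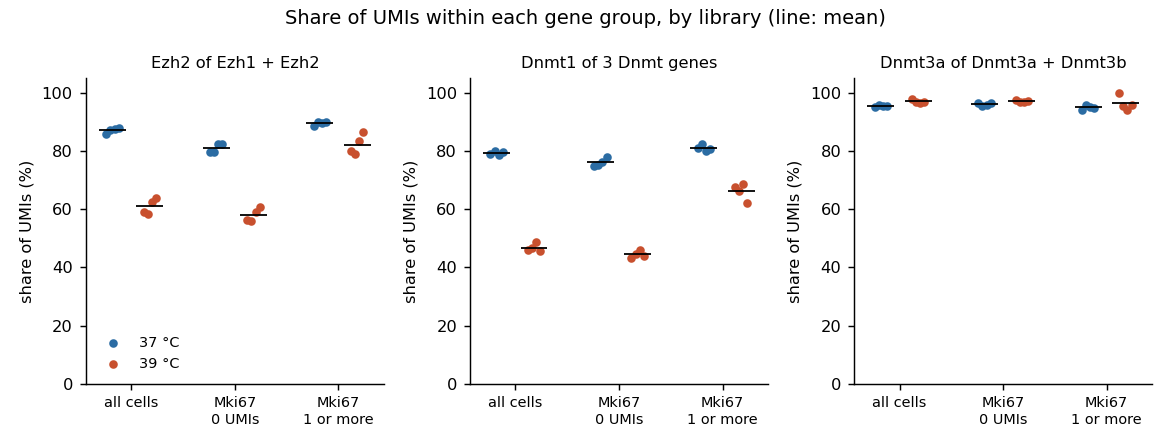
Share of UMIs (%) within each gene group for every library, with 37 °C in blue and 39 °C in orange (4 libraries each) and a line at the mean, in all cells, in cells with 0 Mki67 UMIs and in cells with 1 or more. The *Ezh2* and *Dnmt1* shares are lower at 39 °C in all 3 sets of cells, and the *Dnmt3a* share differs by 1.58 points in all cells.

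Cells were then split by Mki67, since far fewer cells held a Mki67 UMI at 39 °C (587 of 9801) than at 37 °C (4746 of 8550). Among cells without a Mki67 UMI the same 8 members passed in the same directions as in all cells. These cells were not alike in phase (called from expression scores, described below). At 37 °C 55.3% were called S and 40.3% G1, and at 39 °C 13.9% and 84.8% (means of 4 libraries). The part of this in the differences was not tested. *Uhrf1* fell from 45.5 ± 6.25 to 7.20 ± 1.01 CPM, *Dnmt1* from 129 ± 7.44 to 56.2 ± 1.81 CPM, *Ezh2* from 88.0 ± 5.32 to 39.7 ± 1.25 CPM and *Suz12* from 88.7 ± 3.34 to 70.2 ± 1.30 CPM (SD, n = 4 each). The log2 fold changes were -2.65, -1.19, -1.14 and -0.33, with edgeR adjusted p of 5.25e-15, 4.75e-14, 1.42e-13 and 5.39e-06. *Dnmt3a* (log2 0.81), *Tet1* (0.77), *Ezh1* (0.48) and *Tet2* (0.27) rose, with edgeR adjusted p of 1.02e-11, 3.42e-07, 3.52e-06 and 0.00325. Of 15040 genes tested in these cells 27.1% fell and 29.7% rose, 56.8% in all. The libraries did not overlap for 8 of the 10 members, against 52.9% of genes, and *Uhrf1* alone was called by the stricter rule, which 4.04% of genes passed.

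Among cells with a Mki67 UMI, 4 members fell and 2 rose, where 18.6% of 14404 genes fell and 14.9% rose. The libraries of 6 members had no overlap, against 34.8% of genes. *Uhrf1* stood at 67.6, 73.7, 79.8 and 73.6 CPM at 37 °C and at 45.1, 48.0, 46.7 and 50.9 CPM at 39 °C (log2 -0.61 ± 0.088 (SE), edgeR adjusted p = 1.33e-06). *Ezh2* stood at 146, 151, 144 and 151 CPM and at 75.0, 88.5, 102 and 105 CPM (log2 -0.65 ± 0.079 (SE), edgeR adjusted p = 7.96e-08), with 39 °C replicate 1 the lowest. Neither gene's libraries overlapped between temperatures, but the differences were smaller than in the cells without a Mki67 UMI. *Dnmt1* (log2 -0.32, edgeR adjusted p = 6.62e-04) and *Suz12* (-0.28, 0.00170) fell, and *Dnmt3a* (0.82, 2.75e-09) and *Tet1* (0.68, 0.00515) rose. *Ezh1* and *Tet2*, which had risen elsewhere, did not pass here (log2 0.22 and 0.29, edgeR adjusted p = 0.213 and 0.136), with 27 to 46 *Ezh1* UMIs in a 39 °C library.

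These calls depended on how a dividing cell was defined. Of the Mki67-positive cells at 39 °C, 267 of 587 held a single Mki67 UMI, against 1104 of 4746 at 37 °C. With 2 or more UMIs asked for, *Dnmt1* (log2 -0.15, edgeR adjusted p = 0.204) and *Tet1* (0.35, 0.393) no longer passed, and *Uhrf1* was at -0.32 (0.0205). With cells thinned to 5000 UMIs *Dnmt1* (-0.11, 0.56) and *Suz12* (-0.16, 0.375) did not pass. With cells split by *Top2a*, a topoisomerase gene of S and G2/M cells found in 66.9% of cells at 37 °C and 24.2% at 39 °C, the fall of *Uhrf1* in positive cells was -1.82 and that of *Ezh2* -1.28.

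**Figure D3:**
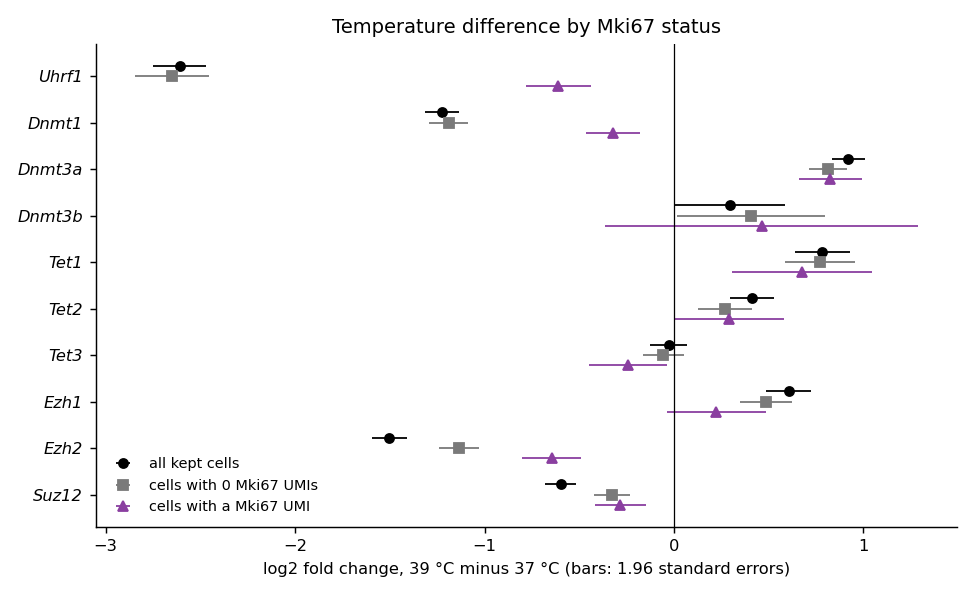
Log2 fold change of each gene between 39 °C and 37 °C (x axis, negative is lower at 39 °C) in all kept cells, in cells with 0 Mki67 UMIs and in cells with a Mki67 UMI, with bars for the 95% interval. *Uhrf1* is at -2.65 without and at -0.61 with a Mki67 UMI, while *Dnmt3a* is at 0.81 and 0.82.

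Within 37 °C, cells with a Mki67 UMI were set against cells without, with the library as a block. *Ezh2* was higher in the Mki67-positive cells (log2 0.75 ± 0.036 (SE)), as were *Uhrf1* (0.70 ± 0.047), *Suz12* (0.49 ± 0.036) and *Dnmt1* (0.24 ± 0.034), with edgeR adjusted p of 2.71e-47, 1.20e-31, 4.00e-27 and 2.07e-10. *Tet2*, *Ezh1* and *Dnmt3a* were lower (log2 -0.26, -0.26 and -0.20, edgeR adjusted p = 0.00485, 0.00154 and 9.46e-04). Of 14744 genes, 19.8% were higher and 15.3% lower, 35% in all, and 1.83% were called by the stricter rule, which no member passed. Positive cells were also deeper, with median UMIs of 14474 against 10635 as means over the libraries. With every cell thinned to 5000 UMIs and the split made on the thinned counts, *Ezh2*, *Uhrf1* and *Suz12* still passed, *Dnmt1* did not (log2 0.09, edgeR adjusted p = 0.158), and no member was lower.

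Within 39 °C the same contrast was wider for the maintenance genes. *Uhrf1* stood at 45.1, 48.0, 46.7 and 50.9 CPM in cells with a Mki67 UMI and at 7.47, 7.51, 5.75 and 8.08 CPM in cells without (log2 2.74 ± 0.12 (SE), edgeR adjusted p = 2.35e-55). *Ezh2* (log2 1.24), *Dnmt1* (1.11) and *Suz12* (0.52) were also higher, with edgeR adjusted p of 8.09e-39, 1.01e-39 and 3.96e-13. *Ezh1* was lower (log2 -0.52 ± 0.12 (SE), edgeR adjusted p = 1.71e-04), and *Tet3* and *Dnmt3a* were just past the threshold (log2 -0.26 and -0.19, edgeR adjusted p = 0.0375 and 0.0435). Here 13.1% of genes were higher and 14.9% lower, 28% in all. The cells with and without a Mki67 UMI had no overlap between libraries for 6 members, against 27.7% of genes. The calls for *Tet3* and *Dnmt3a* were lost with RLE factors, with DESeq2 and with thinned cells, that for *Tet3* also without 39 °C replicate 2 (edgeR adjusted p = 0.253) or 3 (0.163), and that for *Dnmt3a* without replicate 1 (0.124), 2 (0.181) or 3 (0.078).

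Whether the Mki67 contrast itself differed between temperatures was tested with the interaction term. It was wider at 39 °C for *Uhrf1* (log2 2.05 ± 0.12 (SE)), *Dnmt1* (0.86 ± 0.069) and *Ezh2* (0.49 ± 0.077), with edgeR adjusted p of 9.73e-37, 1.53e-23 and 6.16e-08. Of all genes 5.45% passed with a positive and 7.83% with a negative interaction term. For *Suz12* the interaction was 0.04, with an interval of -0.10 to 0.18. When *Top2a* split the cells, *Uhrf1* (0.71) and *Dnmt1* (0.28) remained wider, but *Ezh2* turned to -0.20 (edgeR adjusted p = 0.0194) and *Suz12* to -0.30 (6.42e-06). The direction for *Ezh2* thus rested on the gene used to mark dividing cells.

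**Figure D4:**
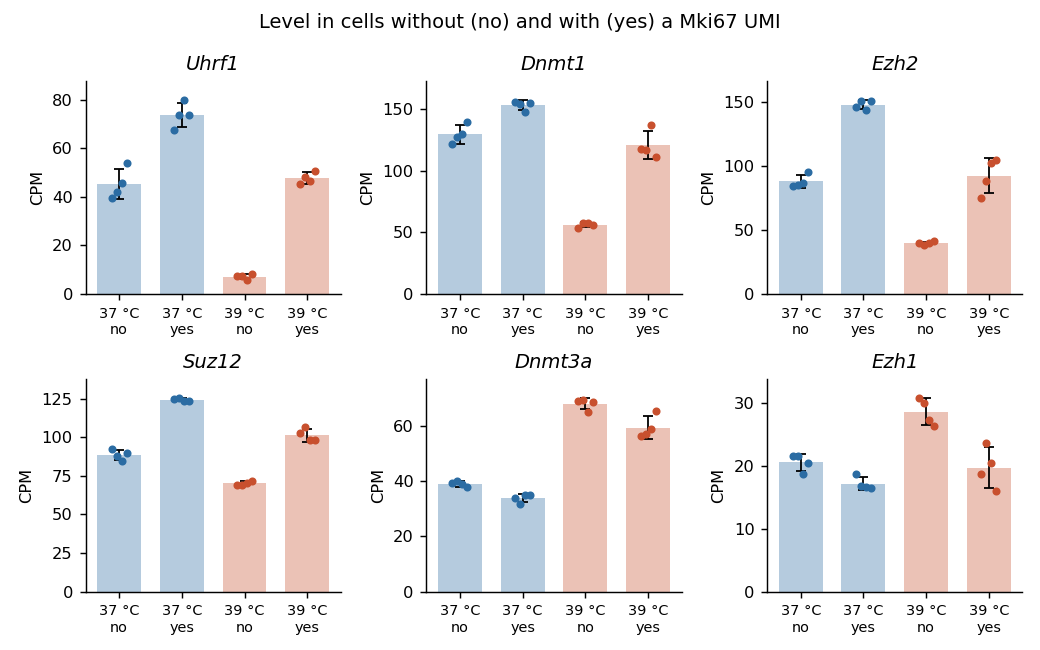
Level in CPM (bars, mean of 4 libraries, from 0) with SD error bars and 1 point per library for 6 of the genes, in cells without (no) and with (yes) a Mki67 UMI at 37 °C (blue) and 39 °C (orange). *Uhrf1* and *Dnmt1* are lowest in 39 °C cells without a Mki67 UMI, at 7.20 and 56.2 CPM, and *Dnmt3a* is higher in both sets of cells at 39 °C.

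Grading the cells by the number of Mki67 UMIs gave a finer view, reported as a description because deeper cells collect more UMIs (plain CPM, without scaling factors). At 37 °C *Ezh2* stood at 87.4 CPM with 0 Mki67 UMIs, at 109.6 with 1, at 146 with 2 to 4 and at 153 with 5 or more. *Uhrf1* did not follow this order, at 45.2, 69.5, 83.2 and 65.2 CPM. At 39 °C, *Ezh2* stood at 39.8, 68.2, 100.3 and 141 CPM and *Uhrf1* at 7.22, 33.9, 61.8 and 58.9 CPM. The upper groups at 39 °C held few cells, 202 with 2 to 4 and 118 with 5 or more. In cells with 5 or more the libraries overlapped between temperatures, at 152 to 155 CPM (37 °C) and 123 to 161 CPM (39 °C) for *Ezh2* and at 61.7 to 71.7 and 42.8 to 82.2 CPM for *Uhrf1*.

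The position in the cycle was taken from expression scores computed without any member of the set. The scores still rest on other cell-cycle genes, *Hells* and *Pcna* among them, which can move with the members. Part of each phase contrast can thus come from how the cells were called, and its p-value is no independent test of phase. At 37 °C, 20.6% of cells were called G1, 45.3% S and 34.1% G2/M (means of 4 libraries), and at 39 °C 80.6%, 15.4% and 4.05%. From G1 to S at 37 °C, 4 members were higher and 5 lower, where 21.1% of 14172 genes were higher and 22.9% lower, 44% in all. The libraries of 8 members did not overlap between the phases, against 35.1% of genes, and *Uhrf1* and *Ezh2* were called by the stricter rule, as were 2.07% of genes. *Uhrf1* had 8.52, 9.61, 11.3 and 11.7 CPM in G1 and 89.1, 92.9, 101 and 99.8 CPM in S, a 9.35-fold difference (log2 3.23 ± 0.076 (SE), edgeR adjusted p = 2.90e-51). *Ezh2* (log2 1.53), *Dnmt1* (1.19) and *Suz12* (0.60) were also higher in S, with edgeR adjusted p of 4.38e-42, 2.91e-39 and 2.16e-19. *Tet2*, *Ezh1*, *Tet1*, *Tet3* and *Dnmt3a* were lower (log2 -0.51, -0.50, -0.39, -0.33 and -0.16, edgeR adjusted p = 6.23e-06, 4.70e-06, 0.0220, 3.30e-05 and 0.0263). The calls for *Tet1* and *Dnmt3a* were lost without 37 °C replicate 4 (edgeR adjusted p = 0.230 and 0.246), that for *Tet1* also without replicate 2 (0.119), and that for *Dnmt3a* also without 37 °C replicate 1 (0.0644) or 39 °C replicate 1 (0.0598). Both were also lost with thinned cells, with no filter on low counts and with phases scored within each library (0.0578 for *Tet1* and 0.304 for *Dnmt3a*), *Dnmt3a* with DESeq2 (0.058) and with no cell filter (0.0791), and *Tet3* with thinned cells (0.056).

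From S to G2/M, 3 members were lower and 2 higher. *Uhrf1* was lower in G2/M, at 47.2, 50.1, 52.8 and 49.2 CPM (log2 -0.94 ± 0.043 (SE), edgeR adjusted p = 1.68e-32), and so were *Dnmt1* (-0.53, 6.13e-24) and *Dnmt3a* (-0.37, 3.79e-08). *Ezh2* stood at 142 CPM in both phases (log2 0.00, interval -0.07 to 0.07), but was lower in G2/M when phases were scored within each library (log2 -0.16, edgeR adjusted p = 6.60e-04). *Suz12* (log2 0.10) and *Ezh1* (0.21) were slightly higher in G2/M (edgeR adjusted p = 0.0223 and 0.0261). In this contrast 21.3% of genes were higher and 21.4% lower. Neither of these small rises passed with DESeq2, and each lost its call without some of the 37 °C libraries: *Suz12* without replicate 3 or 4 and *Ezh1* without replicate 1 or 2.

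**Figure D5:**
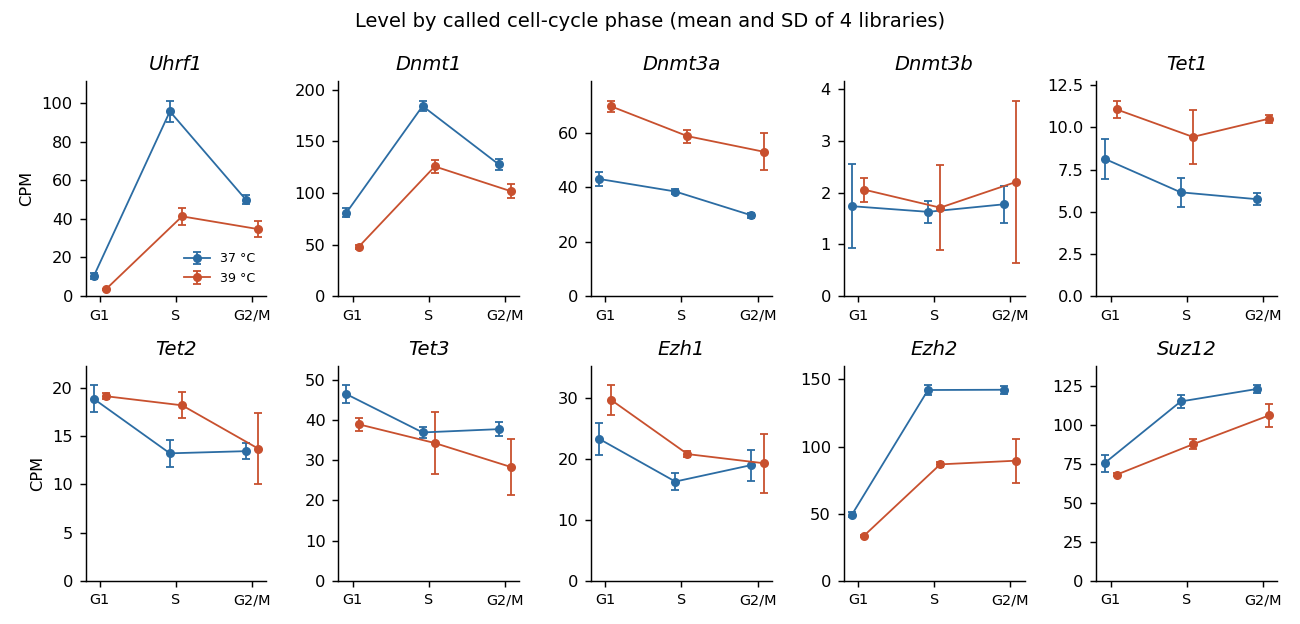
Mean level in CPM with SD (4 libraries) of each gene in cells called G1, S and G2/M at 37 °C (blue) and 39 °C (orange). *Uhrf1*, *Dnmt1* and *Ezh2* lie lower at 39 °C in all 3 phases and *Dnmt3a* and *Tet1* lie higher.

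The temperature comparison was repeated within each phase, an alternative added after the data were seen. In G1 cells 4 members fell and 3 rose (21.3% and 23.7% of 14630 genes), in S cells 4 fell and 4 rose (25% and 21.9% of 13950), and in G2/M cells 4 fell and 2 rose (16.3% and 12.6% of 13741). *Uhrf1* fell in each, by 1.49 in G1, 1.22 in S and 0.55 in G2/M on the log2 scale (edgeR adjusted p = 1.41e-08, 1.92e-13 and 6.51e-04). *Ezh2* was at -0.51, -0.71 and -0.61 and *Dnmt1* at -0.72, -0.55 and -0.33, and these passed in each phase. *Dnmt3a* rose in each phase (log2 0.73, 0.62 and 0.87), as did *Tet1* (0.49, 0.59 and 0.87). Counts in G2/M cells at 39 °C were low, with 5 to 14 *Tet1*, 4 to 21 *Tet2* and 6 to 28 *Ezh1* UMIs in a library. *Tet2* passed in S (log2 0.47, edgeR adjusted p = 0.00123) but not in G1 (0.057, 0.607) or G2/M (0.12, 0.707), and *Ezh1* passed in G1 (0.38, 8.52e-04) and S (0.35, 0.00568) but not in G2/M (0.10, 0.732). *Tet3*, which did not pass in the sum over all cells, was lower in G1 (log2 -0.22, edgeR adjusted p = 0.00565) and G2/M (-0.43, 0.0201). *Suz12* passed in S alone (log2 -0.40, edgeR adjusted p = 2.91e-06), with -0.11 (0.107) in G1 and -0.22 (0.0544) in G2/M.

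The share of cells with a UMI was compared after thinning, as the deeper library of a pair shows more. With 5000 UMIs per cell, *Uhrf1* was found in 23.6% ± 1.89 of cells at 37 °C and 4.51% ± 0.517 at 39 °C (SD, n = 4 each), and in 44.1% and 8.49% without thinning. Among thinned cells without a Mki67 UMI it was found in 20.5% ± 2.11 and 3.80% ± 0.441. *Dnmt3a* was found in 16.5% ± 0.611 and 27.2% ± 1.48, and *Ezh1* in 8.54% ± 0.314 and 13.2% ± 1.44 of thinned cells. The line holds no cell type known to lack these genes, so the share that free RNA gives was not measured.

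Genes that work beside the members were read from lists chosen with earlier results of these data known. Of 13 partners of maintenance methylation 11 were tested in all cells, 6 fell and 3 rose (median log2 -0.66, against 0.02 over all genes). Over all genes 30.5% fell and 31.5% rose. *Hells*, a helicase needed for methylation of packed DNA, fell from 134 ± 8.14 to 45.2 ± 1.92 CPM (SD, n = 4 each, log2 -1.56 ± 0.052 (SE), edgeR adjusted p = 5.58e-15). *Lig1*, the replication ligase that Uhrf1 binds, fell by 1.34, *Pcna*, the sliding clamp that holds Dnmt1 at the fork, by 1.28, and *Cdca7l* by 1.38 on the log2 scale (edgeR adjusted p = 3.44e-14, 3.27e-13 and 4.61e-12). *Uhrf2*, the paralog of *Uhrf1*, rose from 113 to 158 CPM (log2 0.49, edgeR adjusted p = 6.23e-09) and was named after its value was seen. In cells with a Mki67 UMI 3 of the 11 fell and 1 rose, where 33.5% of all genes passed. *Pcna* did not pass there (log2 -0.03, edgeR adjusted p = 0.872), and *Hells* was at -0.24 (0.025). *Hells* and *Pcna* belong to the list that scored S phase, so their phase contrasts are not given.

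Of 8 genes listed with the readers of methylated CpG sites, not all of which need bind them, 4 rose and 2 fell. Of all genes 31.5% rose and 30.5% fell. *Mbd3*, a subunit of the NuRD complex, fell from 149.8 ± 12.6 to 72.7 ± 2.14 CPM (log2 -1.04, edgeR adjusted p = 5.42e-12), and the zinc finger reader *Zbtb4* rose from 22.3 ± 0.846 to 42.4 ± 1.59 CPM (log2 0.93, 4.38e-12). *Mbd4*, a glycosylase, fell by 0.23 on the log2 scale (edgeR adjusted p = 0.00247). Of 12 partners of demethylation 5 rose and 6 fell, where 62% of all genes passed in either direction. *Cxxc5*, a CpG-binding protein related to a part of the Tet family, rose from 15.1 to 35.3 CPM (log2 1.22, edgeR adjusted p = 1.24e-13). *Cxxc4* rose by 2.08 (edgeR adjusted p = 0.00169) on only 8 UMIs at 37 °C and 31 at 39 °C. *Idh2*, a mitochondrial source of the oxoglutarate that Tet enzymes use, fell by 1.21, and *Apex1*, a nuclease of base excision repair, by 1.09 (edgeR adjusted p = 7.52e-14 and 2.51e-12).

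Of 12 other PRC2 subunits 11 were tested, and 5 rose and 6 fell (median log2 -0.14), where 31.5% of all genes rose and 30.5% fell. The largest falls were in accessory subunits, *Epop* from 4.72 ± 0.446 to 1.18 ± 0.134 CPM (log2 -2.01, edgeR adjusted p = 1.37e-10) and *Phf19* from 5.20 ± 0.785 to 1.36 ± 0.26 CPM (log2 -1.95, 1.51e-09). *Phf1*, a polycomb-like subunit of the same family as *Phf19*, rose from 10.9 ± 0.509 to 28.5 ± 1.07 CPM (log2 1.37, edgeR adjusted p = 9.76e-14). *Rbbp7*, a histone-binding core subunit shared with other complexes, fell by 1.03 (edgeR adjusted p = 2.32e-12). *Eed*, the core subunit that reads the mark, rose from 33.8 to 44.4 CPM (log2 0.39, edgeR adjusted p = 4.79e-06), against the direction of *Ezh2* and *Suz12*, and was named after its value was seen.

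Of 22 subunits of polycomb repressive complex 1, which binds and ubiquitinates chromatin, 11 rose, 4 fell and 7 did not pass (median log2 0.17), where 62% of all genes passed in either direction. *Cbx7*, a reader of the PRC2 mark, rose from 4.59 ± 0.389 to 12.3 ± 0.301 CPM (log2 1.41, edgeR adjusted p = 7.24e-12), *Scmh1* by 1.02 and *Pcgf3* by 0.93 (5.76e-13 and 1.64e-11), and *L3mbtl2* fell by 0.63 (8.94e-08). Of 9 enzymes that oppose polycomb 5 rose and 2 fell. *Kdm6b*, a demethylase that removes the PRC2 mark, rose from 34.0 ± 3.55 to 67.9 ± 2.94 CPM (log2 1.00, edgeR adjusted p = 4.49e-11), and *Kdm6a*, its relative, by 0.35 (1.44e-06). *Ep300*, an acetyltransferase, rose by 0.46, and *Asxl1*, a partner of the histone H2A deubiquitinase, fell by 0.47 (edgeR adjusted p = 6.33e-08 and 1.23e-07).

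Genes known as targets of silencing by methylation or polycomb ranged from 0 UMIs to high levels. Of 12 germline genes held silent by DNA methylation 2 had enough UMIs to be tested. None of the 12 had more than 9 UMIs at a temperature, and *Dazl*, *Mael*, *Tdrd1* and *Asz1* had 0 UMIs at both, which allows up to 3 UMIs at each. *Tex101* had 9 UMIs at 37 °C and 1 at 39 °C (edgeR adjusted p = 0.0437), and it was named after its value was seen. Of 16 polycomb target genes 6 were tested, 2 rose and 1 fell, where 31.5% of all genes rose and 30.5% fell. *Neurog1*, *Tbx5*, *Hoxa9*, *Hoxd10* and *Hoxd13* had 0 UMIs at both temperatures. *Cdkn2a*, the cell-cycle inhibitor locus, was highly expressed and fell from 1398 ± 18.3 to 1011 ± 42.7 CPM (log2 -0.47, edgeR adjusted p = 2.06e-07), and *Pax3* rose by 0.16 (0.0154).

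Genes with the most similar pattern over the 16 sums (8 libraries, with and without a Mki67 UMI) were named by Pearson's r of log2 CPM among 8396 genes, as a description, since the sums share libraries and fall into groups by temperature and status. *Mcm5*, a part of the replication helicase, had the highest r with both *Uhrf1* (0.994) and *Dnmt1* (0.992). The next for *Uhrf1* were *Chaf1b* (0.990) and *Ccnb2* (0.988), and for *Dnmt1* *Dscc1* (0.992) and *Rfc1* (0.990). *Ezh2* was closest to the histone gene *H2afz* (0.995), *Anapc5* (0.993) and *Rrm1* (0.992), and *Suz12* to *Mns1* (0.988), *Mlf1* (0.984) and *Ercc6l* (0.979). *Dnmt3a* was closest to *Tnfrsf23*, *Lhfpl2* and *Adamtsl4* (0.989, 0.988 and 0.988), *Tet1* to *Tra2a* (0.985), *Dopey1* (0.982) and *Nrip1* (0.979), and *Ezh1* to *Usp20* (0.962), *Rnd3* (0.955) and *Hexdc* (0.950). The values were lowest for *Tet2*, with *Ctns* (0.943), *Acp2* (0.921) and *Lmbrd1* (0.913), and *Tet3*, with *Map2k5* (0.949), *Rragc* (0.920) and *Vamp7* (0.918).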

How the data were processed

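Single-cell RNA-seq was measured in 8 libraries (4 per temperature). Per the labels, the authors used the Chromium 3′ V3 kit and Cell Ranger 3.0.1 with mm10, and deposited whole-number UMI counts per gene and cell, not normalized. Such counts come from transcript ends and give no protein, enzyme activity or methylation level. Cells with over 15% mitochondrial UMIs, under 200 or over 6000 genes were left out, as in the study, and doublets were treated only by that upper limit. Pairs of libraries shared at most 5 barcodes.

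UMI counts were summed per library over all kept cells, over cells with or without a Mki67 UMI, or per phase (Seurat 5.3.0 CellCycleScoring, human lists in mouse letter case without *Uhrf1*). Genes that averaged 1 count or more over the sums were tested with edgeR 4.0.16 in R 4.3.3 (TMM, glmQLFit, glmQLFTest, temperature alone, or library as a block for contrasts within libraries), adjusted by Benjamini-Hochberg over all genes. *Mki67* itself was left out of fits by status. Levels are CPM from TMM-scaled totals. A gene passed at an adjusted p under 0.05. Standard errors are the fold change over the square root of F. Shares were tested with scipy 1.17.1. Intervals of fold changes are 1.96 standard errors to each side. That normal quantile is narrow for so few libraries, so an interval can leave out 0 where the test does not. For *Dnmt3b* in all cells it was 0.0034 to 0.59, with an edgeR p of 0.062 before adjustment. Intervals include the spread between libraries, while the limit (95%) for a count of 0 covers counting error only.

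Levels within status or phase use scaling factors of all 16 or 24 sums, while temperature tests within a status were fitted alone. The procedure was tested on simulated data. Every member was named; per list, called genes and then the largest differences with at least 5 CPM were named, at most 4, except 1 gene that is not reported here. For likeness, members needed 5 CPM and candidates 10. Members, lists and tests were chosen with earlier results of these data known. Alternatives were RLE factors, library totals alone, filterByExpr, no filter on low counts, DESeq2 1.42.0, a replicate block, no cell filter, no upper gene limit, cells thinned to 5000 UMIs, each library left out, 2 or more Mki67 UMIs, a Top2a split, phases scored within each library and, added after the data were seen, each phase alone. Gene positions are from GENCODE M21 (GRCm38, the assembly of mm10).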

Additional observations from a re-analysis of the deposited data

Results flagged for a closer look

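The difference between cells with and without a Mki67 UMI was itself different at 39 °C for *Uhrf1* (log2 2.05), *Dnmt1* (0.86) and *Ezh2* (0.49), by the interaction term of the edgeR fit. With cells split by *Top2a* the values were 0.71, 0.28 and, in the opposite direction, -0.20 (edgeR adjusted p = 0.0194).

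Of 66 groups of 4 libraries, 3 held a library far from the others by Dixon's ratio, and chance gives about 1 in 20 groups. *Dnmt3a* at 39 °C was lowest in replicate 3, at 64.4 CPM in all cells and 65.0 CPM in cells without a Mki67 UMI, both far above every 37 °C library. *Ezh1* in Mki67-positive cells at 37 °C was highest in replicate 1, at 18.7 CPM.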

How the results depend on the processing

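Of the values of single members under the alternatives, 1385 kept their direction and side of the threshold, 58 lost a call, 15 gained one and 2 reversed. With G2/M cells alone, 2 members rose. In that phase *Hells* (0.014) and *Pcna* (0.041), which the S score includes, were near 0. The sign changed, without passing the test, for *L3mbtl2* in G1 (0.15) and in G1, S and G2/M for *Mbd4* (0.22, 0.026 and 0.38) and *Pax3* (-0.063, -0.16 and -0.24). In Mki67-positive cells, 1 member rose with 2 or more Mki67 UMIs asked for and 4 with the Top2a split, and 2 fell with thinned cells. Within 37 °C no member (0) was lower with thinned cells. Within 39 °C 1 was lower with RLE factors, library totals only, filterByExpr, no filter, DESeq2, thinned cells and the Top2a split, where *Tet3* was near 0 (0.0074). For the interaction, 1 member was lower with thinned cells and 2 with the Top2a split, where *Ezh2* reversed (-0.20). From G1 to S, 3 were lower with no filter, 2 with thinned cells and 3 with phases scored within each library. From S to G2/M, 1 was higher with RLE factors, no filter or phases scored within each library, and 0 with DESeq2 or thinned cells. The *Dnmt3a* share differed by 1.79 points with thinned cells and 1.42 in Mki67-positive cells, neither past the threshold.

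Leaving out each library in turn gave 4 to 5 members that rose in all cells, 4 to 5 that fell in Mki67-positive cells, 2 to 3 that were lower in positive cells at 37 °C, 1 to 3 at 39 °C, 3 to 5 from G1 to S and 1 to 2 that were higher from S to G2/M. The added fall was that of *Tet3*, without 39 °C replicate 1 or 4, and the call lost at 37 °C was that of *Tet2*, without replicate 3. The shares ranged from -27.1 to -25.3 points for *Ezh2*, 1.35 to 1.71 for *Dnmt3a* and -33.1 to -32.1 for *Dnmt1*, where 4 against 3 libraries cannot give an exact permutation p under 0.0571. Correlations of same-numbered libraries, as deviations from the mean of their temperature, were -0.119, -0.117, -0.0925 and 0.287. Those of differently numbered libraries ran from -0.315 to 0.307, so no pairing by number was seen. With 4 libraries per temperature such correlations cannot exclude it. With the replicate block, 4 members rose and 4 fell in all cells, 2 and 4 in Mki67-positive and 4 and 4 in Mki67-negative cells, as without it. The causes of these changes were not tested. Few Mki67-positive cells at 39 °C (73 to 190 in a library) limit the depth there.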
